A study of Mus musculus with 8 samples.

Results

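The comparison of miR-146a knockout with BL6 wild-type cultures rests on 4 of the 8 arrays of the series, 2 in each group, taken by their genotype labels. The miR-146a knockout group (genotype mir-146a-/-) and the BL6 wild-type group (genotype C57BL/6Ncrl) each hold a culture from female mice, replicate A, and a culture from male mice, replicate B. All mice were 10 weeks old and of strain C57BL/6, and all cultures were femoral bone marrow grown for 5 days with IL-7, a cytokine that supports B cell precursors, in medium with 10% serum. A further 2 arrays of Bob1+/+ cultures, called Bob1 wild-type here, are a separate wild-type reference, and 2 arrays of Bob1-/- cultures, which lack a B cell transcriptional coactivator, complete the series. The labels call the cultures of a group biological duplicates but name neither the number of mice in a culture, nor the breeding of the BL6 wild-type mice relative to the knockout mice, nor how the knockout allele was made. The p-values therefore measure the spread between these cultures. Total RNA was read on one-colour Agilent arrays of 41174 mouse probes, each 60 bases long. A level is the log2 signal of a probe relative to the 75th percentile of its array, so that 0 is the 75th percentile, and each unit is a doubling.

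miR-146a is a microRNA that pairs with messenger RNAs through its seed, the bases near its 5′ end, and lowers their translation or stability. NF-kB induces its gene, and the adaptors Traf6 and Irak1 downstream of Toll-like receptors are among its best known targets, so it is regarded as a brake on inflammatory signalling in blood cells. Mice without it are known for late myeloid expansion and for immune activation with age.

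The microRNA is shown because its absence defines the knockout group, with the star strand of its hairpin and the related miR-146b beside it. Capitals mark the seed, bases 2 to 8, and the sequences are those of RefSeq on GRCm38.p6.
mmu-miR-146a-5p: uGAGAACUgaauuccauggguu
mmu-miR-146a-3p: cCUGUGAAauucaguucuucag
mmu-miR-146b-5p: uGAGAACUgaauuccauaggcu
The 5p strands of miR-146a and miR-146b share the seed and 20 of 22 bases. The mature miR-146a-5p lies on the minus strand of chromosome 11, chr11:43374435-43374456, and miR-146b-5p on the plus strand of chromosome 19, chr19:46342790-46342811. The array has 0 probes for miR-146a, so the loss of the microRNA itself could not be read from these arrays.

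The 4 arrays were similar in brightness and in overall pattern. Their 75th percentiles lay between 627 and 760 intensity units, and 63.3% to 64.7% of probes were well above background. Over the tested features, knockout replicates correlated at r = 0.994 and wild-type replicates at 0.991, while knockout with wild-type arrays ranged from 0.990 to 0.994 (across features, which are not independent replicates). Xist and the Y-linked probes matched the sex label on 4 of 4 arrays. Early B cell genes stood among the brightest probes. Vpreb1, a surrogate light chain gene, was at 8.13 ± 0.27 in wild-type and 7.98 ± 0.10 in knockout cultures, and Cd79b, a B cell receptor signalling chain gene, at 7.74 ± 0.09 and 7.72 ± 0.25 (SD, n = 2 each). The granulocyte gene S100a9 reached 9.23 ± 0.04 and 9.08 ± 0.004, so the cultures were mixtures of cell types. In such mixtures, fewer cells of a type and less RNA per cell cannot be told apart.

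Few transcripts differed between the groups. Of 17044 tested features, 21 passed a limma adjusted p of 0.05 (0.123% of the tested features), of which 15 rose in the knockout (0.088%) and 6 fell (0.0352%). A feature is a gene represented by its brightest probe, or a probe without a gene symbol. Of the 21, 15 carried a symbol, and the falls described here were those of Hmmr, Jakmip3, Sall3, Ifi47 and a probe without a symbol. The named rises were Lrmda, Atp8b3, Leap2, Zfp354a, Gm16867, Sprr4, Tmod4, Pttg1, Tmem254a and Lyrm7. At an unadjusted p under 0.05 there were 510 features (2.99%), 276 higher (1.62%) and 234 lower (1.37%). In 12 of the 21 both arrays of the dimmer group stayed below detection (not well above background), 8 times the wild-type and 4 times the knockout. For these the difference is only a bound, given as "at least", from the brighter group's mean against the dim arrays, where each dim array counts at its least detected signal unless the probe itself was brighter. The SE and p-values of these 12, and whether they kept a call with arrays left out, rest partly on signals below background. They are therefore no measure of the spread of expression in the dimmer group. With detection required on all 4 arrays compared, 4 calls remained. With 2 arrays against 2, an exact permutation test cannot go below p = 0.33, so the calls rest on limma's pooled spread. In simulated data of this size, limma recovered 48% of 2-fold and 85% of 4-fold changes, with 7 false calls over both sizes together. The simulated noise was normal and independent, with no detection limit and no deviations shared by sex or slide. These rates therefore do not carry over to the calls with a group below detection.

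The number of calls differed between ways of processing the signals. In the authors' deposited table of normalized log2 values, limma called 1 feature, Hmmr, at a log2 fold change of -2.06 (922 features at an unadjusted p under 0.05). With a normexp background correction it called 0, with only 2 of 17044 features at an unadjusted p under 0.05. Leaving out the spots under their background, at most 6 on an array, normexp gave 14 calls, 8 of them among the 21. That variant was chosen after seeing the data. All 21 features kept their direction in the deposited table, but those that were dim in one group were close to 0 there, with Leap2 at 0.04, Atp8b3 at 0.06, Jakmip3 at -0.08 and A_52_P762901 at 0.17. Of the genes detected on all 8 arrays, Pttg1 was at 1.76 (limma adjusted p = 0.0937) and Ifi47 at -1.76 (0.357), while Lrmda was at 0.66, Tmod4 at 0.13 and Lyrm7 at 0.06. The reason for these differences was not tested.

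**Figure D1:**
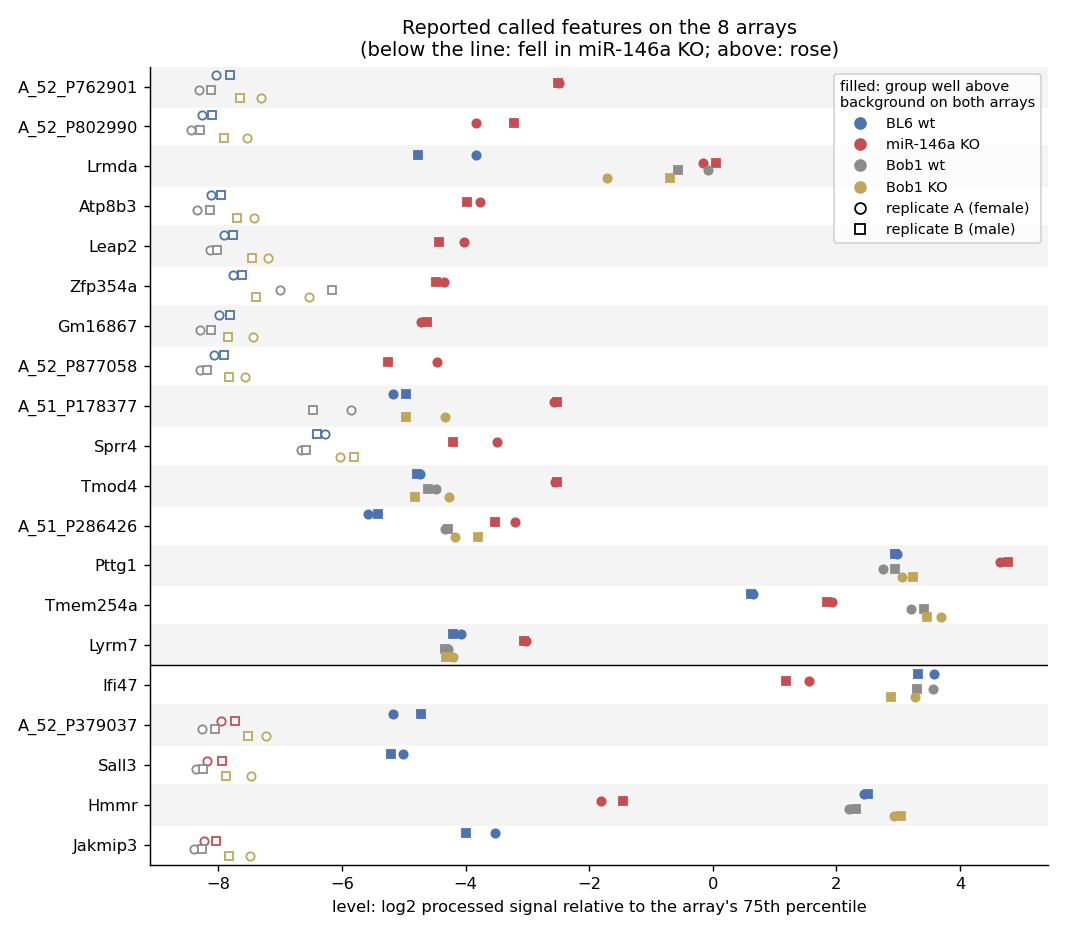
Level (log2 processed signal relative to the array's 75th percentile) of 20 of the 21 called features on the 8 arrays, by group (colour) and replicate (shape), with open symbols where a group was not well above background on both arrays. The knockout arrays stand apart from all 6 others at Hmmr, Ifi47, Pttg1 and Leap2, while at Jakmip3 and Sall3 the BL6 wild-type arrays do, and at Lrmda the knockout arrays lie beside the Bob1 wild-type arrays.

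Hmmr showed the strongest fall of a well measured gene. It encodes RHAMM, a hyaluronan receptor that also binds the mitotic spindle. Its probe was at 2.44 and 2.52 in BL6 wild-type replicates A and B and at -1.81 and -1.46 in the knockout replicates. The Bob1 wild-type arrays read 2.21 and 2.32, and the Bob1 knockout arrays 2.93 and 3.04. Both knockout arrays were thus far below all 6 others and still well above background. The fall was 17.3-fold (log2 fold change -4.11, SE 0.15, limma adjusted p = 0.000381), and against Bob1 wild-type the log2 fold change was -3.90 (limma adjusted p = 0.000307).

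A second Hmmr probe did not move. The probe that fell lies at base 3852 of the transcript (chr11:40514892-40514951, mm9) and the other at base 2126 (chr11:40519497-40519556), 1726 bases upstream. The upstream probe read 0.65 and 0.95 in BL6 wild-type and 0.79 and 0.90 in knockout cultures, so the groups overlapped. Its log2 fold change was 0.05 (SE 0.25, limma adjusted p = 1.0 over all probes). Both probes were well above background on all 8 arrays, and the array files assign both to the same RefSeq transcript. The loss of signal was therefore seen only toward the 3′ end among the 2 probes of this gene, and an unequal change along the transcript cannot be told apart from a change at the probe's own site.

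Pttg1 rose. It encodes securin, which holds separase inactive until anaphase. Its levels were 2.98 and 2.94 in BL6 wild-type and 4.65 and 4.77 in knockout cultures, against 2.76 and 2.95 in Bob1 wild-type and 3.06 and 3.23 in Bob1 knockout cultures. The knockout arrays were the highest of the 8. The rise was 3.36-fold (log2 fold change 1.75, SE 0.13, limma adjusted p = 0.00809). It fell short of the threshold when any 1 of the 4 arrays compared was left out, with a limma adjusted p of 0.0508 and 0.0778 without BL6 wild-type A and B, and 0.0695 and 0.105 without knockout A and B, while the log2 fold change stayed between 1.69 and 1.81. With slide and replicate letter together as blocks the limma adjusted p was 0.0689. Its probe is at chr11:43233801-43233860 (mm9) and is the only tested one of the gene.

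Hmmr and Pttg1 were the only called genes among 39 mitosis and spindle genes, against 0.123% of all features. Both were given for this comparison and the list was chosen with earlier results of these data known, so the count is only a description. Of these 39 members, 1 rose and 1 fell, and 35 were lower and 4 higher, against 9840 lower and 7204 higher of all 17044 features. The median log2 fold change was -0.11 against -0.03 over all features. The kinase gene Plk1 was at -0.17 and the cyclin gene Ccnb1 at -0.11. Espl1, which encodes separase, was at 0.06, and none of the 3 passed the test. The 33 DNA replication genes had a median of -0.10 with 0 called (0 at an unadjusted p under 0.05). Without BL6 wild-type replicate B the medians were 0.02 and 0.03, so they carry no direction. Under the normexp background correction of all spots, which called 0 features, they were 0.24 and 0.20.

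**Figure D2:**
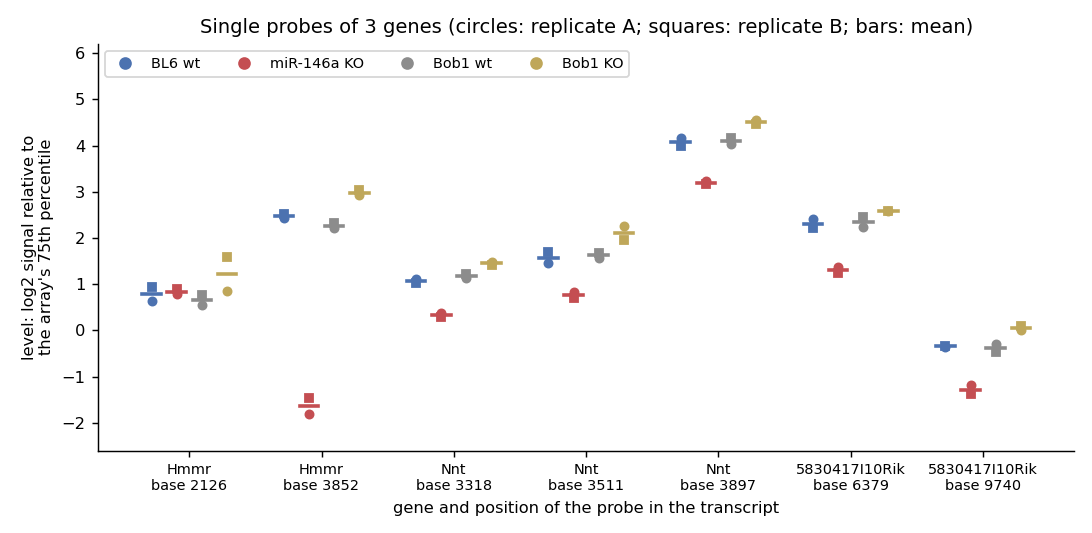
Level (log2 signal relative to the array's 75th percentile) of each tested probe of Hmmr, Nnt and 5830417I10Rik, in order of the probe's position in the transcript, for the 4 groups; points are arrays and bars group means. Only the probe at base 3852 of Hmmr is low in the knockout cultures, whereas all 3 probes of Nnt and both of 5830417I10Rik lie lower there by a similar amount.

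Ifi47, an interferon gamma inducible GTPase gene, fell 4.23-fold. Its levels were 3.58 and 3.32 in BL6 wild-type, 1.55 and 1.18 in knockout, 3.56 and 3.30 in Bob1 wild-type and 3.28 and 2.88 in Bob1 knockout cultures. The knockout arrays were again below all others (log2 fold change -2.08, SE 0.21, limma adjusted p = 0.0330). With the slide as a block the limma adjusted p was 0.112, and it was 0.104 and 0.227 without knockout A and B, 0.134 and 0.141 without BL6 wild-type A and B, and 0.0841 without either Bob1 wild-type array. It was 0.00584 with the replicate letter as a block and 0.0372 with both blocks.

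The remaining falls described were of transcripts detected in BL6 wild-type cultures alone. Jakmip3, which encodes a microtubule-binding protein, was at -3.52 and -3.99 in BL6 wild-type and at -8.23 and -8.04 in knockout cultures, a fall of at least 4.68-fold (limma adjusted p = 0.000979). Sall3, a zinc finger transcription factor gene, was at -5.01 and -5.20 against -8.19 and -7.95, at least 1.84-fold (limma adjusted p = 0.00272). The same pattern held for a probe annotated to an Ensembl transcript of Atf2, a stress-responsive transcription factor gene, which fell at least 2.04-fold (limma adjusted p = 0.00603). Its adjusted p was 0.0638 and 0.0542 without knockout A and B and 0.0756 with slide and replicate letter as blocks (probe A_52_P379037). All 3 were below background on the Bob1 wild-type and Bob1 knockout arrays as well, so the BL6 wild-type cultures were the ones that stood apart. Atf2 itself, read by its brightest probe, was at 0.67 ± 0.03 in BL6 wild-type and 0.73 ± 0.03 in knockout cultures (SD, n = 2 each).

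Leap2 rose from below background. It encodes a liver-expressed peptide first described as antimicrobial and later as a blocker of the ghrelin receptor. Its levels were -7.90 and -7.76 in BL6 wild-type and -4.03 and -4.43 in knockout cultures, while the Bob1 wild-type arrays read -8.14 and -8.02. Only the knockout arrays were well above background. The rise was at least 3.27-fold (fitted log2 fold change 3.60, SE 0.17, limma adjusted p = 0.00107). This SE and p rest partly on signals below background, and in the authors' deposited table the log2 fold change was 0.04. Leap2 was the only called gene among 12 tested antimicrobial peptide genes, against 0.123% of all features. It was given for this comparison and the list was chosen with earlier results of these data known, so the count is only a description. The list median was -0.01 and ran from -0.34 to 0.35 as arrays were left out in turn, so it carries no direction.

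Several further genes were likewise detected only in knockout cultures. Atp8b3, a phospholipid flippase gene known from sperm, read -8.11 and -7.95 in BL6 wild-type and -3.77 and -3.97 in knockout cultures, at least 4.20-fold higher (limma adjusted p = 0.000381). Sprr4, a cornified envelope gene of skin, read -6.28 and -6.41 against -3.49 and -4.21, at least 4.26-fold higher (limma adjusted p = 0.0257). Zfp354a, a zinc finger repressor gene, read -7.76 and -7.62 against -4.36 and -4.48, at least 2.87-fold higher (limma adjusted p = 0.0454). Neither group of arrays overlapped the other in any of these genes. Sprr4 and Zfp354a lost their call in several fits, and all of these calls rest partly on signals below background. Sprr4 had a limma adjusted p of 0.0566 with the slide as a block, 0.100 and 0.179 without BL6 wild-type A and B, 0.0841 without either Bob1 wild-type array and 0.0590 without either Bob1 knockout array. Zfp354a had 0.138 with the block, 0.306 and 0.285 without knockout A and B, 0.181 and 0.227 without BL6 wild-type A and B, and 0.0544 without either Bob1 wild-type array.

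Tmod4 and Lyrm7 rose from a measured level. Tmod4, a tropomodulin gene that caps actin filaments in muscle, read -4.74 and -4.78 in BL6 wild-type and -2.56 and -2.52 in knockout cultures, a 4.67-fold rise (log2 fold change 2.22, SE 0.19, limma adjusted p = 0.0144). With the slide as a block its limma adjusted p was 0.0610, and it reached 0.172 without knockout B, 0.115 without knockout A, 0.0827 and 0.126 without BL6 wild-type A and B and 0.0560 without either Bob1 wild-type array. Lyrm7, which encodes an assembly factor of respiratory complex III, read -4.08 and -4.21 against -3.02 and -3.05 (2.16-fold, log2 fold change 1.11, SE 0.12, limma adjusted p = 0.0396). This call rested on a probe for a cDNA clone that the array files name Lyrm7, and it was lost without any 1 of the 8 arrays (limma adjusted p from 0.0934 to 0.308) and when slide entered as a block (0.122). The other 2 Lyrm7 probes were not well above background on any array.

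At Lrmda, Tmem254a and a predicted gene on the X chromosome, the BL6 and Bob1 wild-type arrays did not overlap. By limma the wild-type groups differed at Tmem254a (adjusted p = 0.00263), but not at Lrmda (0.117) or the predicted gene's probe (0.528). Lrmda, which encodes a melanocyte differentiation protein, read -3.83 and -4.77 in BL6 wild-type, -0.15 and 0.05 in knockout and -0.07 and -0.57 in Bob1 wild-type cultures. It rose 19-fold against BL6 wild-type (log2 fold change 4.25, SE 0.42, limma adjusted p = 0.0330) and stood at 0.27 against Bob1 wild-type (limma adjusted p = 1.0). Tmem254a, a transmembrane protein gene, read 0.66 and 0.62 in BL6 wild-type, 1.93 and 1.85 in knockout and 3.21 and 3.42 in Bob1 wild-type cultures. It rose 2.38-fold against BL6 wild-type (limma adjusted p = 0.0463) and was lower than Bob1 wild-type (log2 fold change -1.42, limma adjusted p = 0.0313), so the knockout arrays lay between the wild-type groups. The probe for predicted gene Gm15247 rose 4.41-fold (limma adjusted p = 0.0131), with -5.59 and -5.41 in BL6 wild-type, -3.20 and -3.52 in knockout and -4.34 and -4.29 in Bob1 wild-type cultures. Against Bob1 wild-type its log2 difference was 0.95 (limma adjusted p = 0.534), and an adjacent probe of Gm15247, A_51_P286431, at least 7.08-fold brighter than in BL6 wild-type cultures, where it was undetected, did not pass the test (limma adjusted p = 0.124).

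These 3 calls were among the less stable ones. Tmem254a lost its call without any 1 of the 8 arrays (limma adjusted p from 0.0802 to 0.350) and in the fit blocked by slide (0.147). Lrmda lost it with the block (0.0610), without knockout A or B (0.197 and 0.261), without BL6 wild-type A or B (0.0508 and 0.144) and without either Bob1 wild-type array (0.0841). The Gm15247 probe A_51_P286426 lost it with slide and replicate letter as blocks (0.0857), without knockout A or B (0.0964 and 0.0645), without BL6 wild-type A or B (0.0814 and 0.0852) and without either Bob1 wild-type array (0.0560). Tmem254a belongs to a group of near-identical genes on chromosome 14, and its signal can include theirs.

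Some of the calls belonged to probes without a gene symbol. Of the 6 called features without a symbol, 5 rose, and the 3 whose annotation names no gene product are printed here, because their sequence is their only identity, and were singled out after their values were seen.
A_52_P762901: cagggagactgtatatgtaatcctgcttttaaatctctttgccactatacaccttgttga
A_52_P802990: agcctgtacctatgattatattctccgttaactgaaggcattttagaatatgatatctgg
A_52_P877058: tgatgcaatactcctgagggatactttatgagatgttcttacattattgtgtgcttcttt
The first lies on the minus strand at chr14:70023335-70023394 and the second on the plus strand at chr15:76358121-76358180 (mm9), both in RIKEN cDNA clones listed as unclassifiable, and the third has no position in the files. A_52_P762901 read -8.04 and -7.82 in BL6 wild-type and -2.49 and -2.50 in knockout cultures, at least 10.9-fold higher (limma adjusted p = 0.000234). A_52_P802990 read -8.27 and -8.10 against -3.83 and -3.22, at least 5.35-fold higher (limma adjusted p = 0.00109). A_52_P877058 read -8.07 and -7.90 against -4.46 and -5.25, at least 2.12-fold higher (limma adjusted p = 0.0131). None of the 3 was above background outside the knockout group. A_52_P877058 lost its call without BL6 wild-type A or B (limma adjusted p of 0.0827 and 0.0944) and without either Bob1 wild-type array (0.0560).

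Chromosome 14 held 5 of the called features, all of them rises, among 585 tested (0.855%, against 0.123% of all features). Beside Lrmda and Tmem254a, these were 3 neighbours within 98.7 kb that held 4 tested features, namely A_52_P762901, Gm16867 and A_51_P178377. That span was delimited by the calls themselves, so 3 of 4 is a description. Gm16867, a predicted noncoding transcript, read -8.00 and -7.82 in BL6 wild-type and -4.72 and -4.62 in knockout cultures, at least 2.42-fold higher (limma adjusted p = 0.00129). A_51_P178377, for a testis cDNA annotated as a mitochondrial solute carrier, read -5.17 and -4.96 against -2.57 and -2.53 (5.71-fold, limma adjusted p = 0.0463) and lost its call with the slide as a block (0.145), without knockout A or B (0.299 and 0.33), without BL6 wild-type A or B (0.191 and 0.217) and without either Bob1 wild-type array (0.0560). The fourth feature was Entpd4, a Golgi nucleotidase gene, at 0.96 (limma adjusted p = 0.206), named here after its value was seen because its probe overlaps that of Gm16867. Over 50 of 60 bases the Gm16867 probe is the reverse complement of the Entpd4 probe, so the pair reads opposite strands of the same stretch.

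Every called difference was present on both slides and in both sexes. Each slide held 1 knockout and 1 BL6 wild-type array, which differed in sex, and the sex-matched arrays lay on different slides. These differences re-pair the same 4 arrays that gave the calls, so for called features they are a description and no independent support. All 21 called features had the same direction in the 4 such differences and were at least 2-fold apart in each of them by their raw signals, as were 58 of all tested features (0.34%, 45 higher, 0.264%, and 13 lower, 0.0763%). In 12 of the 21 these raw differences are taken against undetected signals, and for Sall3 the bound given above is under 2-fold. For Hmmr the differences were -3.90 on slide 1, -4.33 on slide 2, -4.25 in females and -3.97 in males. For Pttg1 they were 1.79, 1.71, 1.67 and 1.83, and for Ifi47 -2.39, -1.77, -2.03 and -2.13. Over all features the sign matched between the slides in 41.9% and between the sexes in 47.9%. With the slide as a block, 13 of the 21 kept their call.

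**Figure D3:**
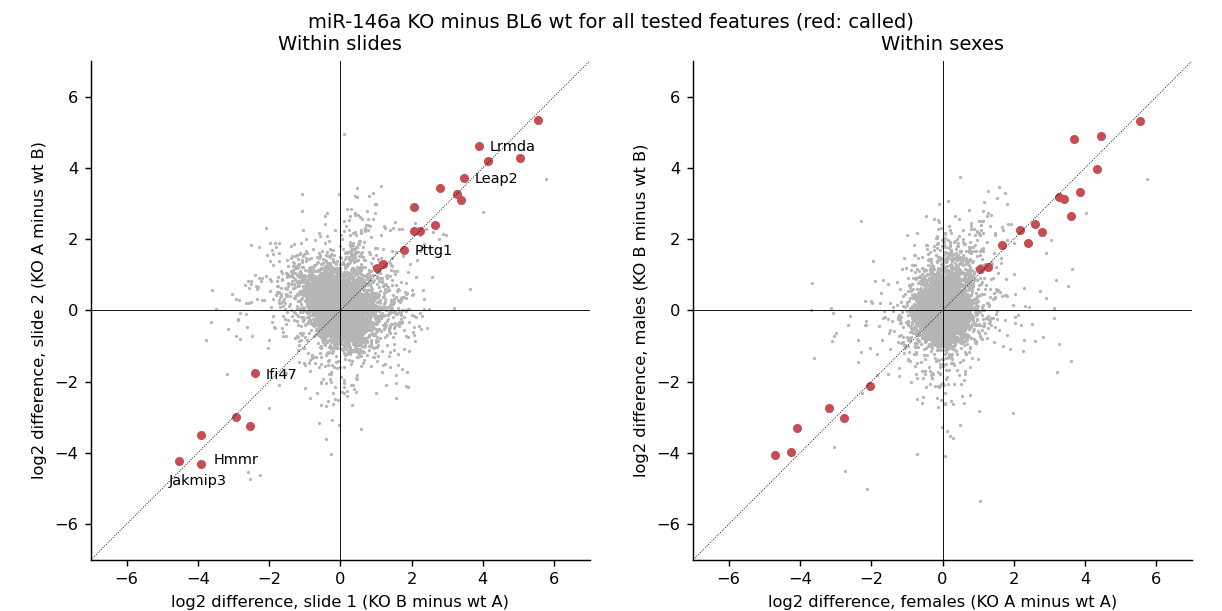
Log2 difference of every tested feature, miR-146a knockout minus BL6 wild-type, on slide 1 against slide 2 (left) and in females against males (right), with called features in red. The bulk of features forms a cloud around 0 with no shared direction, and the called features lie along the diagonal in both panels. Both panels pair the same arrays that gave the calls.

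Among features at least 2-fold apart in all 4 differences that did not pass the test, Syce1, a meiotic synapsis gene, was at -2.42 and -2.40 in knockout cultures and below background in BL6 wild-type cultures (-8.17 and -6.10, limma adjusted p = 0.527, fitted on 7 arrays because 1 Bob1 wild-type spot was an outlier). The germ cell genes Akap3 (limma adjusted p = 0.205) and Tdrd1 (0.267), together with 9430099M06Rik (1.0) and Aldh1a3 (0.812), a retinaldehyde dehydrogenase gene, were above background only in BL6 wild-type of the 2 groups. The SD of their BL6 wild-type replicates ran from 1.1 (Akap3) to 1.72 (9430099M06Rik; n = 2 each), wider than at the called genes.

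Some moderately expressed genes were lower in knockout cultures at every probe without passing the test. Nnt, the mitochondrial transhydrogenase that makes NADPH, read 4.16 and 3.99 in BL6 wild-type and 3.24 and 3.16 in knockout cultures at its brightest probe, beside 4.04 and 4.16 in Bob1 wild-type cultures. Its log2 fold change was -0.87 (SE 0.12, limma adjusted p = 0.160), and its 3 probes ranged from -0.87 to -0.73. 5830417I10Rik read 2.41 and 2.21 against 1.36 and 1.25, and its 2 probes were at -1.0 and -0.94 (limma adjusted p = 0.127). The knockout arrays were below all 6 other arrays at both genes. Nudcd2, a chaperone partner gene that neighbours Hmmr, was at -1.05 (limma adjusted p = 0.270).

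The called features of chromosome 11, where the miR-146a gene lies, fell in a single stretch. All 6 of them, Hmmr, Pttg1, Ifi47, Zfp354a, Leap2 and Lyrm7, lay within 14.1 Mb that held 134 tested features (4.48% called). On the rest of chromosome 11, limma called 0 of 1269 features (34 at an unadjusted p under 0.05, 2.68%), and among all other features, 399 of them without a position, 15 of 15641 (0.0959%). Within the stretch, 23 features had an unadjusted p under 0.05, which is 17.2% of them. The stretch was delimited by the calls themselves, so these shares are a description. Relative to Pttg1, the tested gene next to the miR-146a gene on one side, Hmmr lay 2.72 Mb before it and Lyrm7 11.4 Mb after it. Gabrb2, a GABA receptor gene and the nearest tested gene on the other side, was at -0.45 (limma adjusted p = 1.0), and Slu7, a splicing factor gene next to Pttg1, at 0.19 (1.0). Of the nearest tested genes, 20 on each side, only Hmmr and Pttg1 were called. The median log2 fold change of the stretch was -0.03, the same as over all features to 2 decimals, and its calls went both ways, 4 up and 2 down.

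**Figure D4:**
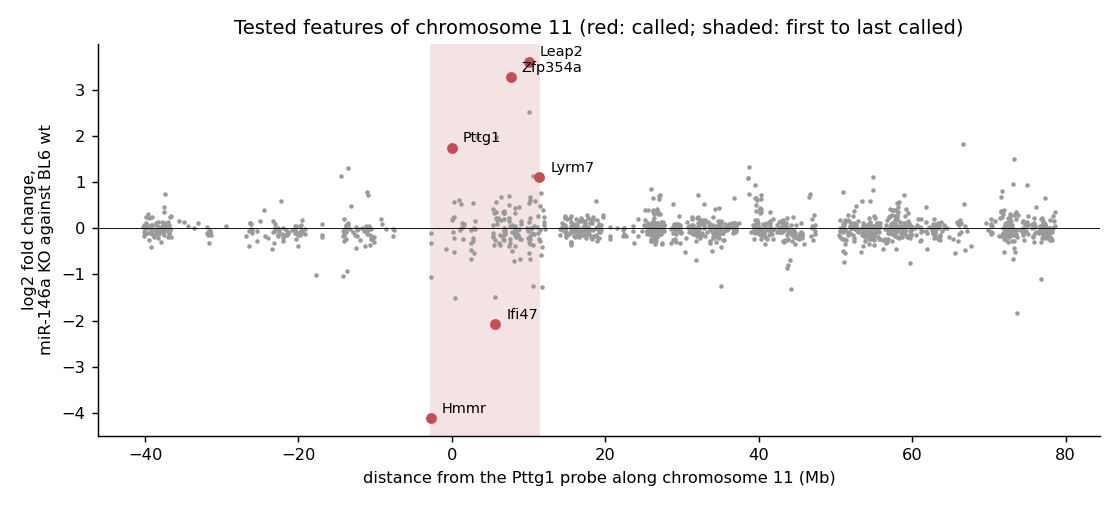
Log2 fold change, miR-146a knockout against BL6 wild-type, of each tested feature of chromosome 11 against its distance in Mb from the Pttg1 probe, with called features in red and named. The 6 called features lie between 2.72 Mb before and 11.4 Mb after Pttg1 (shaded), and no feature elsewhere on the chromosome was called.

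None of the reported targets of miR-146a passed the test. All 18 listed targets were tested and 0 were called by limma, against 0.123% of all features (1 at an unadjusted p under 0.05, against 2.99%). At such shares the counts do not set the targets apart from other features. With an SE of 0.32 at Fas and 0.39 at Irak2, small changes could be missed. Of them 9 were higher and 9 lower, with log2 fold changes from -0.29 to 0.38 and a median of 0.01 against -0.03 over all features. Traf6, the ubiquitin ligase that carries Toll-like receptor signals, read 0.42 and 0.50 in BL6 wild-type and 0.46 and 0.41 in knockout cultures. Irak1, the kinase upstream of it, read 2.75 and 2.61 against 2.89 and 2.57. At both genes the groups overlapped, with log2 fold changes of -0.02 (SE 0.14) and 0.05 (SE 0.17).

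Among the other targets, Smad4, a mediator of TGF-beta signals, was the one at an unadjusted p under 0.05, and it was lower (3.09 and 3.14 against 2.86 and 2.79, log2 fold change -0.29, limma adjusted p = 1.0). Relb, a subunit of noncanonical NF-kB, was at 0.31, and the death receptor gene Fas at 0.38. The kinase gene Irak2 was at 0.12 and the transcription factor gene Irf5 at 0.12. The chemokine receptor gene Cxcr4 was at -0.06, Numb, an inhibitor of Notch, at 0.05, and the receptor genes Notch1 and Notch2 at -0.10 and -0.13. The scaffold gene Card10 was at -0.17, the GTPase gene Rac1 at -0.13, the DNA repair genes Brca1 and Fancm at -0.03 and 0.03, and the kinase gene Camk2d at -0.15. None of these passed the test, and arrays of messenger RNA do not show changes in translation.

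The chain upstream of NF-kB and its response genes were measured as lists. Over all features, limma called 0.123%, and 2.99% were at an unadjusted p under 0.05. Counts in this and the following lists are to be read beside these shares. Of 23 genes of the Toll-like receptor chain, limma called 0 (1 higher at an unadjusted p under 0.05), with a median of 0.18 (0.11 without BL6 wild-type B). Cd14, the lipopolysaccharide co-receptor, was at 0.90 and 0.76 in BL6 wild-type and 1.53 and 1.69 in knockout cultures (log2 fold change 0.78, limma adjusted p = 1.0). Unc93b1, which escorts endosomal Toll-like receptors, was at 0.25. Of 23 NF-kB subunits and inhibitors, 0 were called (1 higher at an unadjusted p under 0.05, median 0.04). That gene was Tnip1, an inhibitor of NF-kB, with 2.44 and 2.14 against 2.80 and 2.73 (log2 fold change 0.47, limma adjusted p = 1.0). Of 28 NF-kB response genes, 24 were higher and 4 lower, against 7204 higher and 9840 lower of all features. None was called, and the median was 0.24, which was 0.39 without BL6 wild-type A and 0.11 without BL6 wild-type B. The adhesion molecule gene Vcam1 was at 1.24, with -0.29 and -0.45 in BL6 wild-type against 0.34 and 1.40 in knockout cultures, and the chemokine gene Cxcl10 at 1.03, with 0.22 and -1.21 against 0.43 and 0.63 (limma adjusted p = 1.0 for both).

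Interferon response genes had the highest median of the 26 lists, again with 0 called. Of 30 members, 28 were higher and 2 lower in knockout cultures, against 7204 higher and 9840 lower of all features. In 20 members (66.7%) the groups did not overlap, against 27.1% of all features. The median log2 fold change was 0.62, and 2 members, Ifit2 and Bst2, were at an unadjusted p under 0.05. Bst2, the antiviral tether tetherin, read 3.54 and 3.05 in BL6 wild-type and 3.86 and 3.75 in knockout cultures (log2 fold change 0.51, limma adjusted p = 1.0). Ifit2, an inhibitor of viral translation, read -1.30 and -1.77 against -1.14 and -0.76 (log2 fold change 0.58, limma adjusted p = 1.0). The summed level of the list was 6.61 and 6.23 in BL6 wild-type, 6.82 and 6.69 in knockout, and 6.68 and 6.24 in Bob1 wild-type cultures. Both B arrays of the wild-type groups were thus the lower ones, and the median was 0.18 without BL6 wild-type B and 0.97 without BL6 wild-type A. It was 0.23 with the normexp correction and 0.26 in the authors' deposited table. Ifi47, itself interferon inducible but not on this list, went the other way.

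The lists of B cell genes showed little difference. The 30 early B cell genes had a median of 0.01 with 0 called and 0 at an unadjusted p under 0.05, and the groups did not overlap in 6.67% of them, against 27.1% of all features. Their 2 lowest p belonged to the coreceptor gene Cd72 (0.22) and the stem cell factor receptor gene Kit (0.26). The medians were 0.01 for 24 genes of pre-B cell receptor signalling, among them the kinase gene Lck (-0.22) and the adaptor gene Pik3ap1 (0.25), and 0.05 for 34 mature B cell genes, among them Fcrl1 (-0.41) and the MHC class II gene H2-Eb1 (0.38). The 23 IL-7 and STAT5 response genes had a median of -0.02, with the receptor chain gene Il2rg at 0.42 and Mycn at -0.24. Jchain, which joins polymeric immunoglobulin, was the member with the lowest p of the plasma cell and immunoglobulin lists. It read 0.91 and 0.34 in BL6 wild-type, 2.06 and 2.11 in knockout and 1.76 and 1.21 in Bob1 wild-type cultures (log2 fold change 1.46 with an SE of 0.26, limma adjusted p = 0.410). The 11 tested plasma cell genes had a median of 0.05 and the 4 tested immunoglobulin genes -0.03, with Sdc1 at 0.13 and Ighg3 at -0.41.

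Stress and growth lists likewise held 0 limma calls. The medians were 0.01 for 23 p53 and apoptosis genes (0 at an unadjusted p under 0.05), -0.02 for 20 ER stress genes (0) and 0.06 for 24 immediate early genes (1). Egr2, a zinc finger gene induced by receptor signals, was at 0.77 (-1.09 and -1.32 against -0.23 and -0.63, limma adjusted p = 1.0), and Ier2 at -0.28. The apoptosis gene Bik was at -1.58, but only BL6 wild-type A was high (-1.67 and -4.46 against -4.74 and -4.54). The nuclease gene Aen was at 0.25, and the chaperone genes Calr and Pdia4 at 0.17 and 0.12.

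Markers of other cell types in the cultures were measured beside these results. The median was 0.12 for 27 tested myeloid markers, whose summed level was 10.77 and 10.52 in BL6 wild-type and 10.52 and 10.62 in knockout cultures. The 22 T and NK cell markers had a median of -0.29, with a summed level of 5.53 and 5.38 against 5.25 and 5.25. Stromal and endothelial markers (19 tested, median 0.16), dendritic cell markers (14, 0.09), stem and progenitor cell markers (14, 0.08), megakaryocyte markers (12, -0.06), erythroid markers (9, -0.16) and mast cell and basophil markers (10, -0.29) completed the set. Leaving out 1 array changed the sign of the median in each of these 8 lists. Without BL6 wild-type A and B it was 0.44 and -0.17 for myeloid, 0.10 and -0.84 for T and NK cell and 0.46 and -1.09 for mast cell markers, and without knockout A and B it was 0.77 and -0.01 for stromal markers. Limma called 0 members of these 8 lists. At an unadjusted p under 0.05 were 1 of 27 myeloid markers (Cd14), 2 of 14 dendritic cell markers (Bst2 and Itgax) and 1 of 19 stromal markers (Vcam1). So was 1 of 14 stem and progenitor cell markers (Procr), and 0 in the remaining lists, against 2.99% of all features. The mast cell list differed more between replicates (4.84 and 3.41 in BL6 wild-type, 4.22 and 3.57 in knockout cultures) than between groups. The part of these cell types in the differences above was not tested.

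**Figure D5:**
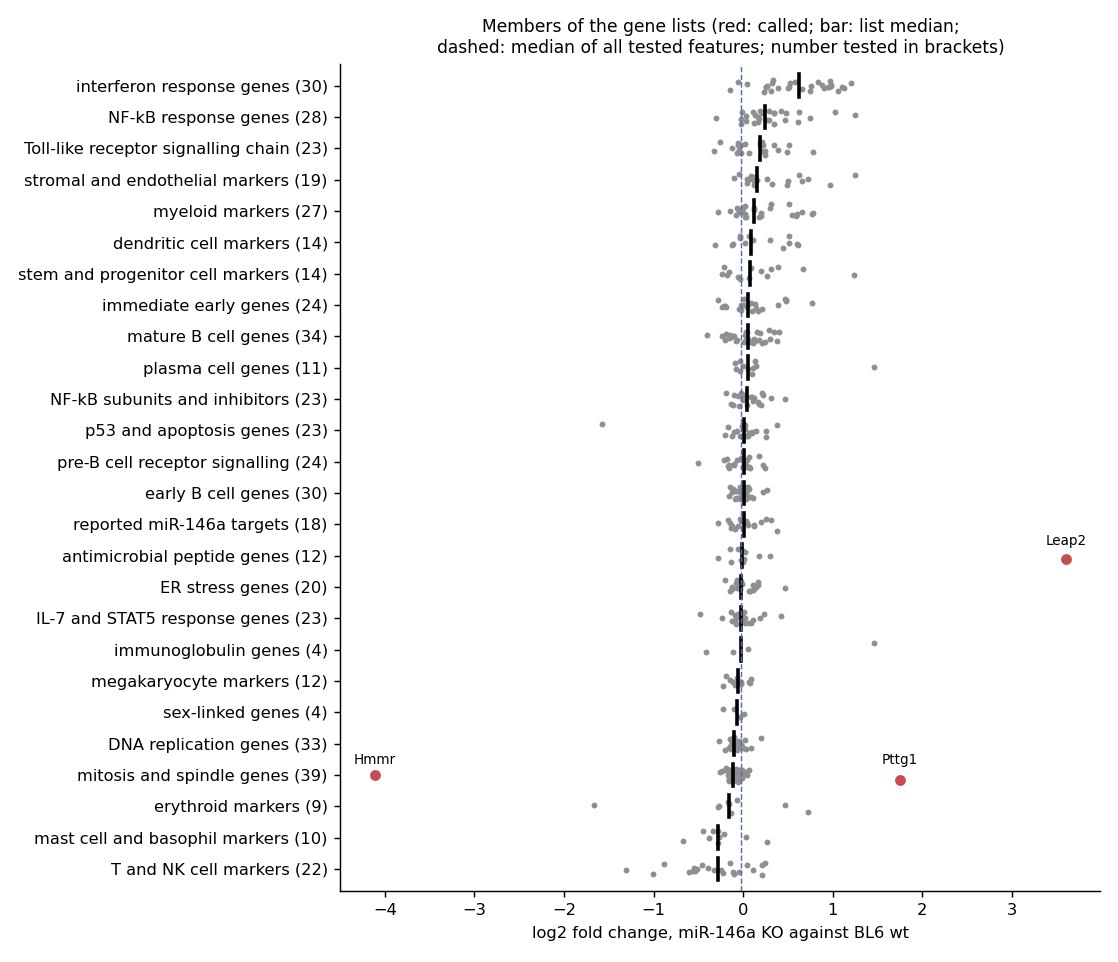
Log2 fold change, miR-146a knockout against BL6 wild-type, of each tested member of the 26 gene lists, with the list median as a bar, the number tested in brackets and the median of all features as a dashed line. Most medians lie within 0.2 of 0, interferon response genes reach 0.62, and the called members are Hmmr, Pttg1 and Leap2.

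Against the separate wild-type reference, the knockout arrays differed in 16 features (0.0939%), 13 higher and 3 lower. This comparison shares the knockout arrays with the first, so the 2 are not independent. Set side by side as log2 differences, Hmmr was at -4.11 against BL6 wild-type and -3.90 against Bob1 wild-type, Pttg1 at 1.75 and 1.86, and Ifi47 at -2.08 and -2.06, and each of these 3 passed the limma test in both. Leap2, Atp8b3 and A_52_P762901 also passed in both, with neither wild-type group above background. Lrmda was at 4.25 and 0.27 and was not called against Bob1 wild-type. Neither were Jakmip3 and Sall3, which were undetected in both the knockout and the Bob1 wild-type cultures. Zfp354a, at 3.27 and 2.16, was not called against Bob1 wild-type either (limma adjusted p = 0.327). It was undetected there, at -7.01 and -6.16. The 2 wild-type groups themselves differed in 6 features (0.0352%), and the Bob1 knockout differed from Bob1 wild-type in 1197 (7.02%).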

How the data were processed

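Total RNA of 8 bone marrow cultures was hybridised to one-colour Agilent arrays and read with Feature Extraction 10.5.1.1, per the file headers. The deposited scanner files give each spot's intensity, of which the processed signal is background-subtracted and detrended within the array per the file headers, and the deposited flags mark outlier spots and spots well above background. The deposited table of log2 values was normalized by the authors in steps not given in the sources used here, and the submitters' processing notes name limma.

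Processed signals were taken to log2 and each array's 75th percentile subtracted. Control and outlier spots were left out. Of 41174 probes, 25898 were well above background on both arrays of the knockout or the BL6 wild-type group, and the brightest probe of each gene gave 17044 features. Symbols came from RefSeq by accession for 27584 probes and from the array files for 7371, and 6219 had none. limma 3.58.1 in R 4.3.3 fitted 4 group means to 8 arrays (4 residual degrees of freedom), with Benjamini-Hochberg adjustment at 0.05, tested on simulated data. The number of arrays limits the precision. Named are the called features with a symbol, the uncalled features of lowest p, the 2 members of lowest p in each list without 2 calls, the reported targets, the nearest neighbours of the miR-146a gene and features at least 2-fold apart in all 4 differences. Some genes that the rule names are not reported here but stay in the counts. Members and lists were chosen with earlier results of these data known. Alternatives covered normalization, background, filters, probe summaries, blocks, limma settings and left-out arrays.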

Additional observations from a re-analysis of the deposited data

Results flagged for a closer look

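In 17 of the called features the knockout effect differed from the Bob1 knockout effect by limma's test of the difference (adjusted p from 0.000583 to 0.0427). These features were chosen by the knockout effect, which is itself a term of this difference. A low p was therefore likely in advance and is no independent support. The values are the log2 effect of the miR-146a knockout minus that of the Bob1 knockout. The Bob1 knockout and Bob1 wild-type arrays lay on different slides, so the Bob1 effect cannot be told apart from a slide difference. Among genes measured on every array, the difference was 5.13 at Lrmda, -4.83 at Hmmr, 2.22 at Tmod4, -1.73 at Ifi47, 1.45 at Pttg1 and 1.06 at Lyrm7, and 1.81 at the Gm15247 probe A_51_P286426. Among features detected in only one group of the knockout comparison, the fitted difference was -5.05 at Jakmip3, -3.59 at Sall3 and -3.68 at A_52_P379037. It was 4.69 at A_52_P762901, 4.02 at A_52_P802990, 2.58 at A_52_P877058, 3.65 at Zfp354a, 3.48 at Atp8b3, 2.84 at Leap2 and 2.67 at Gm16867. In these 10 features the effects are taken against signals below background, the Bob1 effect entirely so, and the fitted differences are not measured sizes.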

How the results depend on the processing

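The 21 calls against BL6 wild-type and 16 against Bob1 wild-type became 0 and 0 with normexp (2 and 6 at an unadjusted p under 0.05 by limma), 1 and 1 in the deposited table, 9 and 8 without a filter on dim probes, and 4 and 7 with detection required on all 4 arrays. With only the 4 arrays compared there were 13 against BL6 wild-type. The slide block gave 14 and 8 and the slide with the replicate block 14 and 6. The replicate block alone gave 15 and 15. Replicate letters also mark sex, and deviations of same-lettered knockout and BL6 wild-type arrays correlated at 0.231. Leaving out 1 array gave 11 to 21 and 7 to 24 calls. The split was 5 higher and 16 lower without BL6 wild-type A, and 8 higher and 16 lower against Bob1 wild-type without Bob1 wild-type A. Normexp without spots under their background, chosen after seeing the data, gave 14 and 19. The cause of these shifts was not tested. No called feature reversed under any alternative run.

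Of the uncalled genes, these reversed. With normexp the log2 values were 0.024 for Smad4, 0.18 for Ighg3, 0.064 for Gmnn, 0.036 for S100a8, 0.23 for S100a9, 0.15 for Ddx3x, 0.25 for Eif2s3x, -0.079 for Ermap, -0.017 for Slc4a1, 0.017 for Ppbp, 0.24 for Cd9, 0.046 for Brca1, 0.11 for Camk2d, 0.24 for Cxcr4, -0.073 for Fas, -0.33 for Irak2, -0.019 for Numb, 0.24 for Rac1 and 0.094 for Traf6. Without spots under their background they were -0.077 for Ermap, -0.028 for Irak2 and 0.13 for Traf6. The deposited table gave 0.16 for S100a9, -0.0034 for Irak2 and 0.084 for Traf6, and quantile normalization 0.069 for S100a9. The mean of a gene's probes gave 0.0079 for Brca1, 0.00042 for Cxcr4, 0.078 for Notch2 and -0.019 for Numb. With 1 array left out, the ranges were -0.41 to 0.21 for Eif2s3x, -0.63 to 0.19 for Ppbp, -0.31 to 0.091 for Cd9, -0.29 to 0.026 for Notch2, -0.98 to 0.15 for Ighg3, -0.13 to 0.058 for Brca1, -0.17 to 0.055 for Cxcr4, -0.034 to 0.10 for Fancm, -0.11 to 0.21 for Irak1, -0.31 to 0.56 for Irak2, -0.0069 to 0.10 for Numb and -0.064 to 0.017 for Traf6.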
